A study of Mus musculus with 40 samples.

Results

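The mitoribosomal protein genes are the 77 genes of the count table whose mouse symbol begins with Mrpl or Mrps followed by a digit, out of 43430 genes listed. They comprise 48 Mrpl genes, named for the large subunit of the mitochondrial ribosome, and 29 Mrps genes, named for the small subunit. A further 5 rows with such symbols are pseudogenes and were left out. Of the 77 genes, 76 passed the filter on low counts and were tested among 11853 genes. The gene that did not pass was Mrpl53, with 0 to 8 counts per library and no count in 6 of the 40 libraries.

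Transcripts were counted by RNA-seq in macrophages differentiated from bone marrow with the growth factor M-CSF (BMDMs) from 10 adult mice of both sexes labelled C57/Bl6. The line that carries the NDI1 allele was of mixed J and N substrain. VAV-Cre WT mice (n = 5) were compared with VAV-Cre NDI1 mice (n = 5), in which Cre driven by the Vav promoter in blood-forming cells switches on the yeast NADH dehydrogenase NDI1 from the Rosa26 locus. Both genotypes thus share the Cre label. BMDMs of every mouse were left untreated, given piericidin A at 500 nM, given the bacterial lipopolysaccharide LPS at 100 ng/mL over 4 h, or given piericidin A 30 min ahead of LPS, so that 4 libraries come from each mouse and 5 libraries form each of 8 groups. Piericidin A blocks mitochondrial complex I, and NDI1 carries electrons from NADH to ubiquinone without complex I, so the NDI1 groups ask which effects of piericidin A remain when that electron transfer is kept. Levels of NDI1 itself were not analysed here.

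Mitochondria translate the few proteins encoded by their own genome, all of them parts of the respiratory chain and ATP synthase, on a ribosome of their own. Its ribosomal RNAs come from mitochondrial DNA, whereas its proteins are encoded in the nucleus, made in the cytosol and imported. Some of these proteins have counterparts in the bacterial ribosome and others are specific to mitochondria. A symbol does not always give the place of a protein. Mrps30 and Mrps18a encode proteins of the large subunit, and Mrps36 encodes a component of the 2-oxoglutarate dehydrogenase complex and not a ribosomal protein. By place and origin, 29 of the 77 genes encode large-subunit proteins with a bacterial counterpart, 21 encode large-subunit proteins specific to mitochondria, 16 encode small-subunit proteins with a bacterial counterpart and 10 encode small-subunit proteins specific to mitochondria.

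Library totals lay between 6950748 and 13552070 counts, and a tested mitoribosomal gene had between 16 and 819 counts in a library. The summed level of 8 macrophage markers lay between 19700 and 38700 CPM (counts scaled to a common library size) in the 40 libraries, and the 3 erythroid and 3 T cell markers stayed at or below 0.126 and 2.20 CPM in sum. The 4 neutrophil and granulocyte markers summed to between 3.41 and 472 CPM, the 4 fibroblast markers to between 0.754 and 104 CPM, the 3 B cell markers to between 0 and 11.6 CPM and the 3 dendritic cell markers to between 0.326 and 12.8 CPM. The libraries of 1 WT mouse (mouse 496) and 1 NDI1 mouse (mouse 503) stood apart on the second principal component, at 35.3 to 72.8 and 28.1 to 30.6 against −26.3 to 13.6 for the 32 libraries of the other mice, and results that change without them are given both ways. In bulk samples, fewer cells of a type and less RNA per cell cannot be told apart.

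The promoters of the genes at both ends of the LPS response are shown because the members moved in opposite directions, and the choice of genes by symbol did not use them. The genes have the 3 largest increases and the 3 largest decreases with LPS in WT BMDMs among called genes with a single RefSeq entry. Mrpl13, Mrps35 and Mrpl2, which rank above some of the genes shown, are therefore absent. Each promoter (build GRCm38.p6) runs from 250 bases before the RefSeq gene start to 50 bases after it. Letters are given 5′ to 3′ on the strand of the gene. Capitals mark matches to the 6 motifs searched.
Mrpl52, chr14:54426659-54426958, plus strand: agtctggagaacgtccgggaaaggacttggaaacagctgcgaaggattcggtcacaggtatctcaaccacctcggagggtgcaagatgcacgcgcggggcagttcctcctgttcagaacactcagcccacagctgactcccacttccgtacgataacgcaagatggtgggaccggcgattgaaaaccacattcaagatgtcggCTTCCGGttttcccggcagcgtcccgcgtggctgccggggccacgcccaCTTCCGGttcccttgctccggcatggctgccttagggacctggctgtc
Mrpl30, chr1:37890227-37890526, plus strand: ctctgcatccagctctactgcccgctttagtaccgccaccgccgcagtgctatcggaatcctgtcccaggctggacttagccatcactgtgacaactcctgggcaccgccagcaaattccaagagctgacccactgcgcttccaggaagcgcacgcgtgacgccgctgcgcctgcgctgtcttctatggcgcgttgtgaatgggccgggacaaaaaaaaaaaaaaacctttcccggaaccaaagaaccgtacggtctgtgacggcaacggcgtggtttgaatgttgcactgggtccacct
Mrpl39, chr16:84735195-84735494, minus strand: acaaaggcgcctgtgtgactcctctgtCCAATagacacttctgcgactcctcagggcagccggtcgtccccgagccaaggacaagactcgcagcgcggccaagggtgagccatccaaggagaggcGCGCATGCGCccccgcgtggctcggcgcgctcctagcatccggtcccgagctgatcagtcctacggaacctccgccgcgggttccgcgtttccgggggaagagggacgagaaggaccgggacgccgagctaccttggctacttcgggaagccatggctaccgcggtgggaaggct
Mrpl41, chr2:24975049-24975348, minus strand: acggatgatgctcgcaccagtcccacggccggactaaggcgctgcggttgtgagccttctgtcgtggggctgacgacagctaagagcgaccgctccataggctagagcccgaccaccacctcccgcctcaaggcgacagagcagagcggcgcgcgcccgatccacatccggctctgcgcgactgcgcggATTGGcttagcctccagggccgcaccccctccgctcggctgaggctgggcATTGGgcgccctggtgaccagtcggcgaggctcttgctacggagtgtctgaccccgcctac
Mrpl49, chr19:6057706-6058005, minus strand: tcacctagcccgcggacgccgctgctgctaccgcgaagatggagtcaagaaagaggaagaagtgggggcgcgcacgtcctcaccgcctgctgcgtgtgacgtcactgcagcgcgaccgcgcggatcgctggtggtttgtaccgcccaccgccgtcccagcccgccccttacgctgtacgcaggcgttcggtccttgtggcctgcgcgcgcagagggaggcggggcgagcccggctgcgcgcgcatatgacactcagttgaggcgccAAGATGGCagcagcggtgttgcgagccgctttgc
Mrpl34, chr8:71464676-71464975, plus strand: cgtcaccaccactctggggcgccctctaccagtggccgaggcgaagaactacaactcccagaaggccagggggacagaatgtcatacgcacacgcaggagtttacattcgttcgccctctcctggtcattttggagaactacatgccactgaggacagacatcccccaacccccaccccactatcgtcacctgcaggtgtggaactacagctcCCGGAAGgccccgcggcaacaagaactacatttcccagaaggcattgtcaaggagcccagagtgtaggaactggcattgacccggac
The motif of NRF1, a regulator of genes for mitochondrial proteins, was searched as GCGCATGC. That of the ETS factors, which include GABP, was searched as CCGGAAG. The YY1 core was AAGATGGC. The E-box, bound by Myc among other factors, was searched as CACGTG. The TATA box, which many promoters of regulated genes carry, was searched as TATAAA. The last motif was the CCAAT box, and each was searched on both strands. The capitals in the Mrpl39 promoter that begin at −125 and −123 from the start are 2 overlapping NRF1 matches, 1 on each strand.

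Promoter entries were found for 68 of the 77 genes, with 74 promoters in all. The ETS core was in 33.8% of the 74 promoters, against 18.1% of the 11769 promoters of tested genes and 8.86% of all 32851 promoters of the table. The YY1 core was in 16.2%, against 4.63% and 2.75%, and the NRF1 core in 9.46%, against 5.23% and 2.71%. The E-box, TATA box and CCAAT box were in 9.46%, 6.76% and 39.2% of them, against 10.0%, 6.94% and 37.6% of the promoters of tested genes. Mrpl52, which rose with LPS, and Mrpl34, which fell, each hold the ETS core, and the Mrpl30 promoter holds none of the 6 motifs. These matches are a description of the letters in a window of 300 bases.

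Some mitoribosomal protein genes had a close neighbour transcribed away from them. Of the 76 tested genes, 17 (22.4%) had a protein-coding gene on the other strand whose start lay within 1 kb and pointed away, compared with 1231 (11.0%) of 11205 tested protein-coding genes. Another annotated gene overlapped 35 (46.1%) of them, compared with 45.5% of the tested protein-coding genes. Of the 17 neighbours, 16 were tested. Both genes were called with LPS in WT BMDMs in 10 of these pairs, and they moved in the same direction in 8 of the 10 (80.0%). Over all 545 such pairs of tested protein-coding genes, both genes were called in 195, and 141 of the 195 (72.3%) moved in the same direction. No test was made on these counts. The neighbours Mrpl30 and Mitd1, whose starts lie 66 bases apart, rose together, by 1.00 and 3.17 on the log2 scale, and Mrpl43 and Twnk, the mitochondrial DNA helicase, whose starts lie 116 bases apart, fell together, by 0.59 and 2.47. Mrpl49 fell by 0.91 while Fau, 137 bases away, rose by 0.40, and Mrps18c rose by 0.49 while Helq, 29 bases away, fell by 1.33.

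Levels per kb of exon were compared between genes only for the 50 tested members whose gene span in the table equals that in the GENCODE M21 annotation, from which the exon lengths come. In untreated WT BMDMs their median was 7.72 CPM per kb, with quartiles at 4.38 and 14.8. Mrps21, a small-subunit protein with a bacterial counterpart, was highest at 30.0 ± 3.93 CPM per kb (SD, n = 5), and Mrpl54 and Mrpl2 followed at 24.3 ± 5.06 and 22.8 ± 2.63. Their libraries lay at 26.1 to 34.5, 18.1 to 31.8 and 19.5 to 26.0 CPM per kb, so that Mrpl54 overlapped both other genes, and Mrps21 and Mrpl2 did not overlap each other. Mrps10 was lowest at 1.52 ± 0.176 CPM per kb, next to Mrps25 at 1.67 ± 0.243. Transcripts that belong together in a single complex thus differed widely in level per exon length, and exon lengths merged over all annotated transcripts lower the values of genes with long rare exons.

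Summed over the genes with Mrpl or Mrps symbols, levels overlapped between groups. The 48 Mrpl genes summed to 941 ± 72.9 CPM in untreated and 1030 ± 81.3 CPM in LPS-treated WT BMDMs (SD, n = 5), and to 960 ± 97.5 and 1020 ± 134 CPM in NDI1 BMDMs. The 29 Mrps genes summed to 471 ± 39 and 455 ± 33.2 CPM in WT and to 473 ± 45.1 and 462 ± 57.7 CPM in NDI1. With piericidin A the Mrpl sum was 1060 ± 122 CPM without and 999 ± 121 CPM with LPS in WT, and 1000 ± 112 and 1080 ± 139 CPM in NDI1. The ranges of all 8 groups overlapped for each sum. No test was made on the sums.

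**Figure D1:**
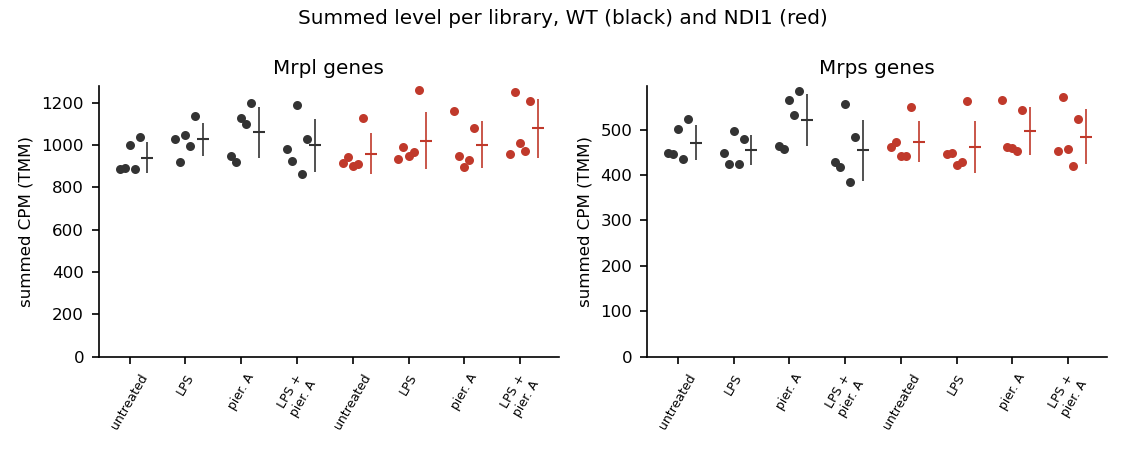
Summed level of the Mrpl genes (left) and the Mrps genes (right) in each library, in CPM normalized by TMM, for the 8 groups. Points are libraries, and the bar beside them is the mean ± SD of 5 libraries. The libraries of the groups overlap, and group means lie between 941 and 1080 CPM for the Mrpl genes. When scaled by library totals alone, the sums are lower in the groups with LPS.

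These sums depend on the scaling. As shares of the library total, the mitoribosomal genes took 0.165% to 0.227% of the counts in the 20 libraries without LPS and 0.0954% to 0.156% in the 20 libraries with LPS. TMM factors were 1.13 to 1.37 without LPS and 0.696 to 0.899 with LPS. Scaling by library totals alone shifted the median log2 fold change of all tested genes with LPS to −0.78 in WT and −0.77 in NDI1. Relative to that shift the members' median was −0.0056 in WT and −0.027 in NDI1, close to the −0.0067 and −0.026 under TMM. Directions with LPS are therefore stated relative to the median of all genes.

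LPS moved individual mitoribosomal protein genes in both directions. In WT BMDMs, 14 of the 76 tested genes rose (18.4%, against 31.5% of all tested genes) and 21 fell (27.6%, against 31.0%), by edgeR's quasi-likelihood test with Benjamini-Hochberg adjustment over all tested genes. Their median log2 fold change was −0.014, and that of all genes −0.0076. In NDI1 BMDMs, 14 rose (against 31.5% of all genes) and 22 fell (against 31.2%), with a median of −0.032. Scaled by library totals alone, 1 rose and 66 fell in WT (against 14.6% and 66.3% of all genes), and 1 rose and 65 fell in NDI1 (against 14.6% and 66.1%). In the fit with the mouse as a block, 18 rose (against 36.4%) and 25 fell (against 35.6%) in WT, and 17 rose (against 36.4%) and 26 fell (against 36.0%) in NDI1. The median size of the change was 0.28 in WT and 0.32 in NDI1, against 0.64 over all tested genes in either genotype. Of the B cell, neutrophil, dendritic cell and fibroblast markers tested, none was called with LPS in either genotype. In the block fit, 2 of 3 B cell markers were higher in WT (sum 0 to 0.734 CPM untreated and 0 to 5.49 CPM with LPS), 1 neutrophil marker was higher in each genotype and 1 dendritic cell marker was lower in NDI1, and their part in the result was not tested.

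**Figure D2:**
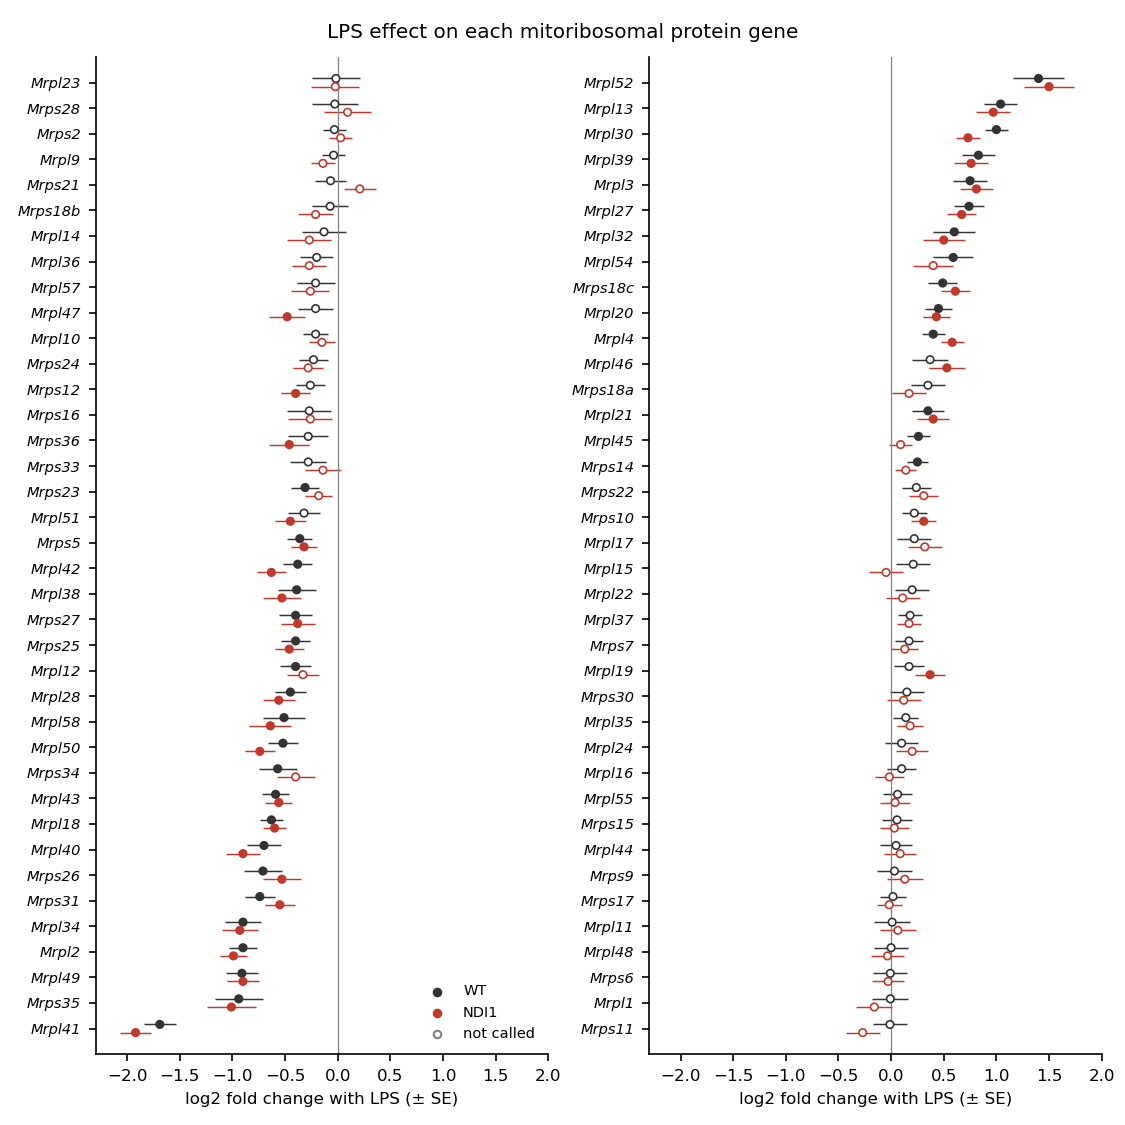
Log2 fold change with LPS (horizontal axis, ± SE) of each of the 76 tested genes in WT (black) and NDI1 (red), ordered by the value in WT. Filled points passed the test and open points did not. Mrpl41 is lowest at −1.69 in WT and Mrpl52 highest at 1.40, relative to the median of all genes under TMM. Scaled by library totals alone, 66 of the 76 fell in WT, against 66.3% of all genes.

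Of the 47 tested Mrpl genes, 12 rose and 13 fell in WT (against 31.5% and 31.0% of all genes). Of the 29 Mrps genes, 2 rose and 8 fell (against the same shares). Of the 29 genes for large-subunit proteins with a bacterial counterpart, 8 rose and 5 fell in WT (against 31.5% and 31.0% of all genes, as for each class here), and 9 rose and 5 fell in NDI1 (against 31.5% and 31.2%). Of the 20 tested genes for large-subunit proteins specific to mitochondria, 4 rose and 8 fell in WT, and 3 rose and 9 fell in NDI1. Of the 16 genes for small-subunit proteins with a bacterial counterpart, 2 rose and 1 fell in WT, with a median of −0.0094, and 2 rose and 2 fell in NDI1. Of the 10 genes for small-subunit proteins specific to mitochondria, none rose and 7 fell in WT, and none rose and 5 fell in NDI1, with a median of −0.40 and −0.39. Blocked by mouse, 1 of these 10 rose in each genotype, and in WT 5 of the 29 Mrps genes rose in place of 2 and 3 of the 16 genes with a bacterial counterpart fell in place of 1. By DESeq2, which like the edgeR test uses a scaling by the majority of genes, 12 members rose and 21 fell in WT (against 31.2% and 32.2% of all genes).

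Mrpl41 (chr2:24974117-24975098 in mm10), a large-subunit protein specific to mitochondria, fell most. It was at 14.7, 15.1, 17.7, 13 and 13.6 CPM in untreated WT BMDMs and at 3.95, 4.06, 5.58, 4.39 and 5.00 CPM with LPS. In NDI1 BMDMs it was at 15.6, 13.5, 15.2, 15.3 and 19.7 CPM untreated and at 3.73, 4.29, 3.51, 3.88 and 5.51 CPM with LPS. No LPS-treated library reached the lowest untreated one in either genotype. The log2 fold change was −1.69 ± 0.15 in WT (SE, adjusted p = 2.1e-12, edgeR) and −1.92 ± 0.15 in NDI1 (adjusted p = 8.8e-14).

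Mrps35 (chr6:147042764-147070903 in mm10), a small-subunit protein specific to mitochondria, was at 9.78, 10.6, 12.7, 8.74 and 13 CPM in untreated and 6.53, 3.85, 7.59, 3.43 and 7.27 CPM in LPS-treated WT BMDMs. The NDI1 libraries were at 12.2, 12.5, 9.50, 10.1 and 11.9 CPM untreated and 5.71, 5.54, 5.13, 4.02 and 7.5 CPM with LPS. The untreated and LPS-treated libraries did not overlap in either genotype, and the log2 fold change was −0.94 ± 0.23 in WT (adjusted p = 4.5e-04, edgeR) and −1.01 ± 0.23 in NDI1 (adjusted p = 2.0e-04).

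Mrpl2 (chr17:46646229-46650139 in mm10) encodes a protein of the catalytic core of the large subunit. It was at 25.8, 22.8, 29.0, 25 and 30.5 CPM in untreated and 12.9, 14.5, 17.5, 11.7 and 14.8 CPM in LPS-treated WT BMDMs, and at 23.4, 25.8, 28.5, 28.3 and 29.3 against 12.7, 13.1, 13.1, 12.2 and 16.9 CPM in NDI1. The groups did not overlap, and Mrpl2 fell by 0.90 ± 0.13 on the log2 scale in WT and by 0.99 ± 0.13 in NDI1 (adjusted p = 2.4e-07 and 3.5e-08, edgeR). Its gene overlaps Gm26904 on the same strand.

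Mrpl49 and Mrpl34 completed the 5 largest decreases in WT. Mrpl49 fell from 16.8 ± 1.35 to 8.93 ± 1.92 CPM in WT (SD, n = 5; log2 fold change −0.91 ± 0.15, adjusted p = 3.6e-06, edgeR). Its gene overlaps Syvn1 on the other strand, which rose by 0.89. Mrpl34, with a bacterial counterpart, fell from 20.0 ± 2.63 to 10.8 ± 1.65 CPM (−0.90 ± 0.17, adjusted p = 3.0e-05). In NDI1, Mrpl40, a large-subunit protein specific to mitochondria, was among the 5 largest decreases at −0.90 ± 0.16 (adjusted p = 5.6e-06). It fell in WT from 18.4 ± 3.15 to 11.3 ± 2.49 CPM.

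Mrpl52 (chr14:54426909-54429750 in mm10), a large-subunit protein specific to mitochondria, rose most. In untreated WT BMDMs it was at 16.1, 23.0, 17.5, 30.0 and 28.4 CPM, and with LPS at 62.1, 55.2, 39.9, 71.9 and 74.9 CPM. In NDI1 BMDMs the values were 20.8, 15.2, 15.7, 29.7 and 25.6 CPM untreated and 45.0, 57.4, 62.0, 62.7 and 75.6 CPM with LPS. Every LPS-treated library lay above every untreated one, although the untreated libraries themselves spread widely. The log2 fold change was 1.40 ± 0.24 in WT (adjusted p = 3.3e-06, edgeR) and 1.5 ± 0.24 in NDI1 (adjusted p = 1.1e-06), and it passed the test under every alternative run, scaling by library totals included.

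Mrpl13 (chr15:55534094-55557748 in mm10) was at 19.8, 18.7, 19.0, 20.8 and 23.0 CPM in untreated and 42.6, 34.5, 35.0, 44.6 and 51.6 CPM in LPS-treated WT BMDMs. In NDI1 it was at 20.2, 18.9, 19.1, 23.8 and 26.8 CPM and at 33.9, 32.2, 42.9, 46.1 and 58.5 CPM. Untreated and treated libraries did not overlap. Mrpl13 rose by 1.04 ± 0.16 on the log2 scale in WT and by 0.97 ± 0.16 in NDI1 (adjusted p = 1.1e-06 and 3.3e-06, edgeR). Its gene overlaps Mtbp on the other strand, which rose by 0.74 at a mean of 2.99 CPM.

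Mrpl30, Mrpl39 and Mrpl3 completed the 5 largest increases in WT and were also among the 5 largest in NDI1. Mrpl30 was at 20.1, 25.6, 22.9, 18.8 and 22.7 CPM in untreated and 46.0, 43.2, 41.1, 44.0 and 46.3 CPM in LPS-treated WT BMDMs, with a log2 fold change of 1.00 ± 0.11 in WT (adjusted p = 5.9e-10, edgeR) and 0.73 ± 0.11 in NDI1. Mrpl39 rose from 18.1 ± 2.85 to 32.3 ± 4.29 CPM in WT, by 0.83 ± 0.16 (adjusted p = 3.1e-05), and by 0.76 ± 0.16 in NDI1. Mrpl3, from 35.2 ± 5.25 to 59.2 ± 11.3 CPM, rose by 0.75 ± 0.16 in WT (adjusted p = 1.3e-04) and by 0.81 ± 0.16 in NDI1. The Mrpl3 gene overlaps Gm38077 on the same strand. With library totals alone these increases of Mrpl30, Mrpl39, Mrpl3 and Mrpl13 no longer passed the test, and the values of Mrpl3 in WT and of Mrpl39 and Mrpl30 in NDI1 were −0.035, −0.0068 and −0.043.

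**Figure D3:**
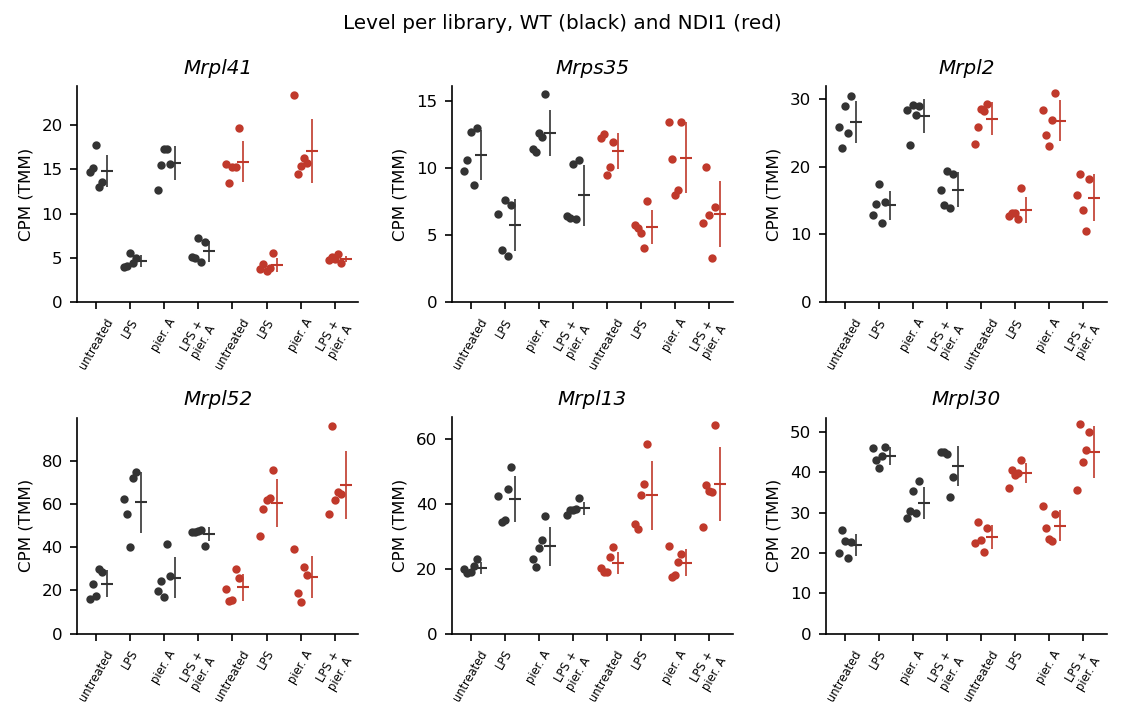
Level of 3 genes that fell and 3 genes that rose with LPS in each library (CPM, normalized by TMM) for the 8 groups, WT in black and NDI1 in red. Points are libraries, and the bar beside them is the mean ± SD of 5 libraries. Mrpl41 went from a mean of 14.8 to 4.59 CPM and Mrpl52 from 23.0 to 60.8 CPM in WT. With library totals alone, Mrpl30 with LPS in NDI1 was at −0.043 on the log2 scale and did not pass the test (adjusted p = 0.75, edgeR).

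A set of genes with known roles was described whatever its response. Mrpl12, part of the stalk that recruits translation factors, fell by 0.40 ± 0.15 in WT (adjusted p = 0.024, edgeR) and its change was −0.33 in NDI1 (adjusted p = 0.062). The other stalk proteins Mrpl10 and Mrpl11 were at −0.21 and 0.0099 in WT (adjusted p = 0.13 and 0.96). Mrpl4 rose by 0.40 in WT and 0.58 in NDI1. Mrps12, of the decoding centre, was at −0.26 in WT (adjusted p = 0.095) and fell by 0.40 in NDI1. Mrps5 fell by 0.36 and 0.32, and Mrps2 and Mrps7 were at −0.032 and 0.17 in WT (adjusted p = 0.82 and 0.25). The 3 Mrps18 paralogs, which take different places in the ribosome, differed in their values. Mrps18c rose by 0.49 in WT and 0.61 in NDI1, Mrps18a was at 0.35 in WT (adjusted p = 0.052) and Mrps18b at −0.072 (adjusted p = 0.73). Mrpl58, a peptidyl-tRNA hydrolase built into the large subunit, fell by 0.51 and 0.64. Mrps30 and Mrpl57 were at 0.15 and −0.21 in WT (adjusted p = 0.42 and 0.33), and Mrps36 was at −0.28 in WT (adjusted p = 0.20) and fell by 0.46 in NDI1. With the mouse as a block, the edgeR test also called Mrpl10, Mrps12 and Mrps18a in WT (adjusted p = 0.015, 0.047 and 9.1e-04) and Mrpl12 in NDI1 (adjusted p = 0.028).

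The LPS effects in WT and NDI1 come from separate mice. Of the 35 members called in WT and the 36 called in NDI1, 29 were called in both (82.9% and 80.6%), all in the same direction. Over all tested genes 6836 were called in both (92.2% and 92.0%), again in the same direction. Over the 76 genes the log2 fold changes had a Pearson correlation of 0.97, against 0.979 over all tested genes, a description across genes that share these libraries. No member differed in its LPS effect between the genotypes by the edgeR test of the difference (0% of all tested genes were called). None had an unadjusted p under 0.05 (against 63 of all 11853 genes) and none was called by DESeq2. The estimated differences lay between −0.27 and 0.27.

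Other genes of mitochondrial translation moved with LPS too. Of 13 mitochondrial translation factors, 1 rose and 10 fell with LPS in WT (against 31.5% and 31.0% of all tested genes), with a median of −0.53. Gfm1, an elongation factor, rose by 0.42 ± 0.10, and Mtrf1, a release factor, and Oxa1l, which inserts new proteins into the inner membrane, fell by 1.03 ± 0.25 and 0.94 ± 0.13. Of 29 assembly and ribosomal RNA modification genes, 5 rose and 12 fell, with a median of −0.36. The RNA methyltransferase Trmt61b and the RNA-binding protein Slirp rose by 2.22 and 0.90, and Mrm1, a ribosomal RNA methyltransferase, and Rbfa, a small-subunit assembly factor, fell by 2.04 and 1.74. None of 5 mitoribosomal subunits with other names, among them Dap3 and Ptcd3, was called with LPS in either genotype. In the fit with the mouse as a block, 1 was higher in WT, and 1 was higher and 1 lower in NDI1.

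Of 14 genes of mitochondrial DNA transcription and maintenance, 4 rose and 5 fell with LPS in WT, near the 31.5% and 31.0% of all tested genes. Pnpt1, an RNA exonuclease, rose by 3.00, and Twnk fell by 2.47. Of 9 tested regulators of mitochondrial biogenesis, 6 rose and 2 fell, Ppargc1b and Gabpb1 rising by 1.42 and 1.39 and Gabpb2 and Yy1 falling by 1.08 and 0.22. None of the 7 tested messenger RNAs encoded by mitochondrial DNA and neither of the 2 mitochondrial ribosomal RNAs was called with LPS in WT or NDI1. Blocked by mouse, both ribosomal RNAs were higher in each genotype (medians 0.64 and 0.68), as were 1 of the 7 messenger RNAs in WT and 4 in NDI1. The libraries were made with poly(A) selection, which limits what they say of ribosomal RNA.

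Piericidin A without LPS raised 7 of the 76 genes in WT BMDMs (9.21%, against 7.79% of all tested genes) and lowered none (against 7.05%) by edgeR, and DESeq2 also called 7 and none (against 8.52% and 9.71% of all genes). An unadjusted p under 0.05 was found for 17 of the 76, against 3386 of the 11853 tested genes. The median log2 fold change was 0.13, against −0.00045 over all genes, and 59 of the 76 values were above 0 (against 5912 of all 11853 genes). The same number was 58 in NDI1. With the mouse as a block, 17 rose (against 17.2% of all genes) and 2 fell (against 16.9%). With library totals alone, where the median of all genes was −0.13, 1 rose and 1 fell (against 4.24% and 14.4% of all genes). Without mouse 496, 1 member was called higher, without mouse 520, 2, and without mouse 447 or 453, 4. The block fit called 11 to 18 higher when each mouse was left out. Shares over all genes are not given for the fits that leave out a mouse. A loss of calls particular to the members therefore cannot be told from a loss over all genes.

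The members' median difference with piericidin A was above 0 in each WT mouse, at 0.053, 0.03, 0.16, 0.30 and 0.15 in mice 449, 452, 453, 496 and 520, so mouse 496, which stands apart, had the largest. In NDI1 it was 0.32 in mouse 447 and between −0.048 and 0.031 in the other 4 mice. Markers of other cell types reached higher sums in some libraries with piericidin A, although the ranges overlapped and none of the tested neutrophil or fibroblast markers was called (1 neutrophil marker was higher in the block fit). The neutrophil and granulocyte markers summed to 4.24 to 97.9 CPM in untreated and 7.35 to 327 CPM in piericidin A-treated WT BMDMs, and the fibroblast markers to 1.27 to 30.6 and 0.836 to 59.5 CPM. Their part in the result was not tested.

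Mrps18a (chr17:46110986-46128910 in mm10), whose product sits in the large subunit, had the largest increase. It was at 24.9, 23.2, 25.5, 22.7 and 32.7 CPM in untreated and 34.2, 30.0, 41.2, 40.1 and 47.7 CPM in piericidin A-treated WT BMDMs. The ranges overlapped through 1 untreated library, and every mouse was higher with piericidin A. The log2 fold change was 0.58 ± 0.16 (adjusted p = 0.011, edgeR). Without mouse 496 or with library totals alone it no longer passed the test, with adjusted p-values of up to 0.091 over all alternatives. The gene overlaps Rsph9 on the other strand, which was at 0.42 (adjusted p = 0.47, edgeR) and a mean of 4.63 CPM.

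Mrpl30 rose from 20.1, 25.6, 22.9, 18.8 and 22.7 CPM to 28.7, 30.4, 35.5, 29.9 and 37.9 CPM, with no overlap between the groups. Its log2 fold change of 0.56 ± 0.11 (adjusted p = 5.0e-04, edgeR) passed the test under each of the 18 alternatives, the only one of the 5 largest increases to do so.

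Mrpl32 was at 16.5, 13.7, 14.1, 12.3 and 17.6 CPM untreated and 20.5, 14.7, 20.5, 24.9 and 30.0 CPM with piericidin A (0.57 ± 0.20, adjusted p = 0.043, edgeR), and the groups overlapped. Mrps6, a small-subunit protein with a bacterial counterpart, was at 7.66, 7.72, 7.17, 7.15 and 6.79 CPM untreated and 7.95, 10.4, 9.26, 11.8 and 12.5 CPM with piericidin A (0.51 ± 0.15, adjusted p = 0.020). Its gene overlaps Slc5a3 on the same strand, so that their reads may not be told apart. Mrpl39 rose from 18.1 ± 2.85 to 25.4 ± 6.72 CPM (0.48 ± 0.16, adjusted p = 0.038). Mrpl32, Mrps6 and Mrpl39 passed the test in 7, 13 and 10 of 18 alternatives, and none of them without mouse 496 or without mouse 520. The other 2 members called were Mrpl24 (0.44) and Mrpl45 (0.36).

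In NDI1 BMDMs, piericidin A without LPS changed none of the 76 genes and 0% of all tested genes by edgeR. None had an unadjusted p under 0.05, and so few did over all genes (58 of 11853) that this is not particular to the members. DESeq2 called none of them, and the fit with the mouse as a block called neither a member nor any other gene. The values lay between −0.088 and 0.30, with a median of 0.060, which was −0.019 without mouse 447. Of the 76 values, 58 were above 0, against 6023 of all 11853 genes. The 5 genes with the largest increase in WT were at 0.078 (Mrps18a), 0.031 (Mrpl32), 0.16 (Mrpl30), 0.023 (Mrps6) and 0.10 (Mrpl39). Whether piericidin A acted differently in the 2 genotypes was itself tested. No member was called higher (against 0.169% of all genes) or lower (against 1.10%), 5 had an unadjusted p under 0.05 (against 1331 of all 11853 genes) and DESeq2 called none of the members. In the fit with the mouse as a block, none was called higher (against 3.81%) and 3 were called lower in NDI1 (against 5.15%), namely Mrpl32, Mrps18a and Mrps15 at −0.53, −0.49 and −0.41 (adjusted p = 0.012, 0.012 and 0.034, edgeR). Without mouse 496 the block fit called none, and without mouse 447 it called 8.

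**Figure D4:**
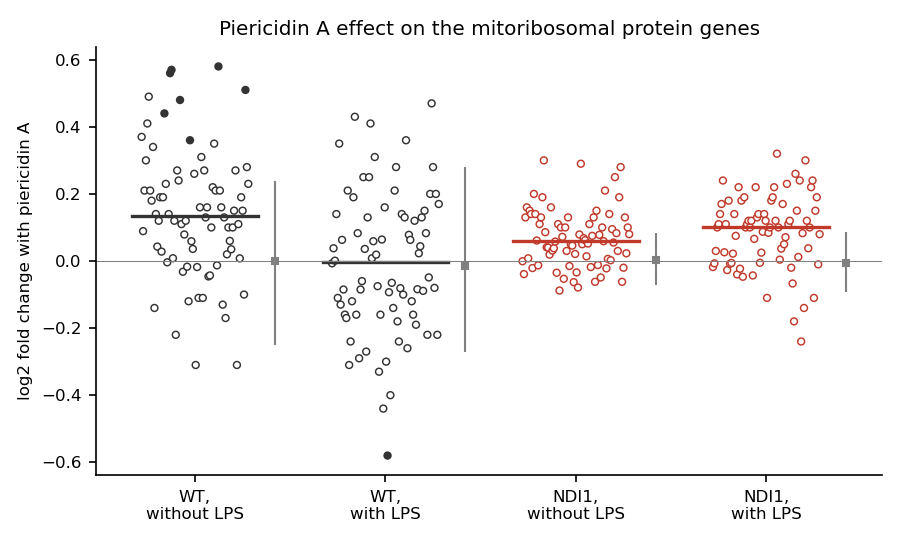
Log2 fold change with piericidin A (vertical axis) of each of the 76 tested genes in WT (black) and NDI1 (red), without and with LPS. Filled points passed the test, horizontal lines are the medians of the 76 genes, and grey squares with bars are the median and quartiles of all tested genes. In WT without LPS the 7 filled points lie between 0.36 and 0.58, and no point is filled in NDI1. With library totals alone, 1 member rose and 1 fell in WT without LPS, against 4.24% and 14.4% of all genes.

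Under LPS, piericidin A raised none of the 76 genes in WT BMDMs (against 7.81% of all genes) and lowered 1 (against 8.92%) by edgeR. DESeq2 called 1 higher and 1 lower (against 8.48% and 10.0%), and 7 had an unadjusted p under 0.05, against 3682 of all 11853 genes. The median was −0.0029, and 38 of the 76 values were above 0, against 5743 of all genes. Blocked by mouse, 4 rose (against 15.6%) and 5 fell (against 18.9%), and these counts were 2 to 5 and 1 to 9 when each mouse was left out, with 1 lower without mouse 496 and 9 without mouse 452. The neutrophil and granulocyte markers summed to 8.85 to 204 CPM with LPS and 19.0 to 472 CPM with LPS plus piericidin A in WT, and the fibroblast markers to 1.34 to 58.0 and 1.92 to 104 CPM. None of them was called in the fit without a block, 2 neutrophil markers and 1 fibroblast marker were higher in the block fit, and their part in the result was not tested. In NDI1 BMDMs under LPS, piericidin A changed none of the members and 0% of all genes, with or without the block, and DESeq2 called none. No member had an unadjusted p under 0.05, against 127 of all 11853 genes. The values there lay between −0.24 and 0.32 with a median of 0.10, against −0.0062 over all genes. Of the 76 values, 58 were above 0, against 5682 of all genes. By mouse the median was 0.30 in mouse 460 and 0.10 in mouse 461, and between −0.052 and 0.025 in the other 3 mice, and it was 0.018 without mouse 460 and up to 0.13 without another mouse.

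The gene that fell was Mrpl50 (chr4:49512596-49521093 in mm10), a large-subunit protein specific to mitochondria. It was at 14, 11.5, 12.0, 12.8 and 17.0 CPM with LPS and at 10.5, 8.83, 9.29, 7.34 and 9.05 CPM with LPS plus piericidin A in WT BMDMs. The groups did not overlap, and the log2 fold change was −0.58 ± 0.15 (adjusted p = 0.0066, edgeR). With only the compared libraries, without mouse 496 or without mouse 520 it did not pass, with adjusted p-values of up to 0.076. LPS alone had already lowered Mrpl50 by 0.52 in WT. In NDI1 BMDMs it was at 11.5, 9.49, 10.4, 12.5 and 17.0 CPM with LPS and 12.4, 12.5, 10.7, 12.4 and 16.4 CPM with LPS plus piericidin A, and these groups overlapped.

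The piericidin A effect under LPS was not called different between genotypes for any member, higher (against 0.160% of all genes) or lower (against 0.818%), 3 had an unadjusted p under 0.05 (against 1656 of all 11853 genes) and DESeq2 called none of the members. With the mouse as a block, 1 member was higher (against 4.70%) and none lower (against 4.81%). It was Mrpl50, at 0.66 ± 0.15 (adjusted p = 0.0067, edgeR), and 1 to 3 members were called higher in the block fit when each mouse was left out in turn.

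In WT BMDMs the piericidin A effect differed with LPS for Mrpl30 and Mrpl45, which were the 2 members called lower (against 2.16% of all genes), and for none higher (against 2.59%). The difference, with LPS minus without, was −0.64 ± 0.15 for Mrpl30 (adjusted p = 0.011, edgeR) and −0.52 ± 0.15 for Mrpl45 (adjusted p = 0.039). Mrpl30 was at 45.2, 45.2, 44.7, 34.0 and 38.8 CPM with LPS plus piericidin A, next to 46.0, 43.2, 41.1, 44.0 and 46.3 CPM with LPS alone. Mrpl45 was at 27.5 ± 3.08 CPM untreated, 35.3 ± 3.00 with piericidin A, 32.9 ± 5.00 with LPS and 29.4 ± 4.69 with both. In the fit with the mouse as a block, 8 members were lower (against 9.48%) and none higher (against 7.95%). Without mouse 496 or without mouse 520 no member was called in the fit without a block, and 6 were lower in the block fit. With library totals alone neither Mrpl30 nor Mrpl45 was called. Mrpl30 kept its call in 14 of 18 alternatives and Mrpl45 in 7.

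NDI1 and WT BMDMs were also compared directly. No member was called untreated or with LPS (0% of all genes each). None had an unadjusted p under 0.05 there, against 39 and 141 of all 11853 genes. With piericidin A no member was called (against 7.80% of all genes), and 8 had an unadjusted p under 0.05 (against 2620 of all genes). DESeq2 called no member in these 3 comparisons. With LPS plus piericidin A, 2 members were higher in NDI1 (against 5.86%) and none lower (against 6.13%). Mrpl50 was higher by 0.52 ± 0.15 (adjusted p = 0.017, edgeR), at 12.9 ± 2.11 CPM in NDI1 and 8.99 ± 1.12 CPM in WT. Mrps17, a small-subunit protein with a bacterial counterpart, was at 22.5, 31.4, 25.3, 21.7 and 26.4 CPM in NDI1 and 17.4, 20.1, 24.0, 16.4 and 19.4 CPM in WT (0.39 ± 0.12, adjusted p = 0.036), and the groups overlapped. Without mouse 496, or with only the compared libraries, neither was called. Mrpl50 kept its call in 14 of 17 alternatives and Mrps17 in 8. These comparisons share libraries with the piericidin A effects above.

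**Figure D5:**
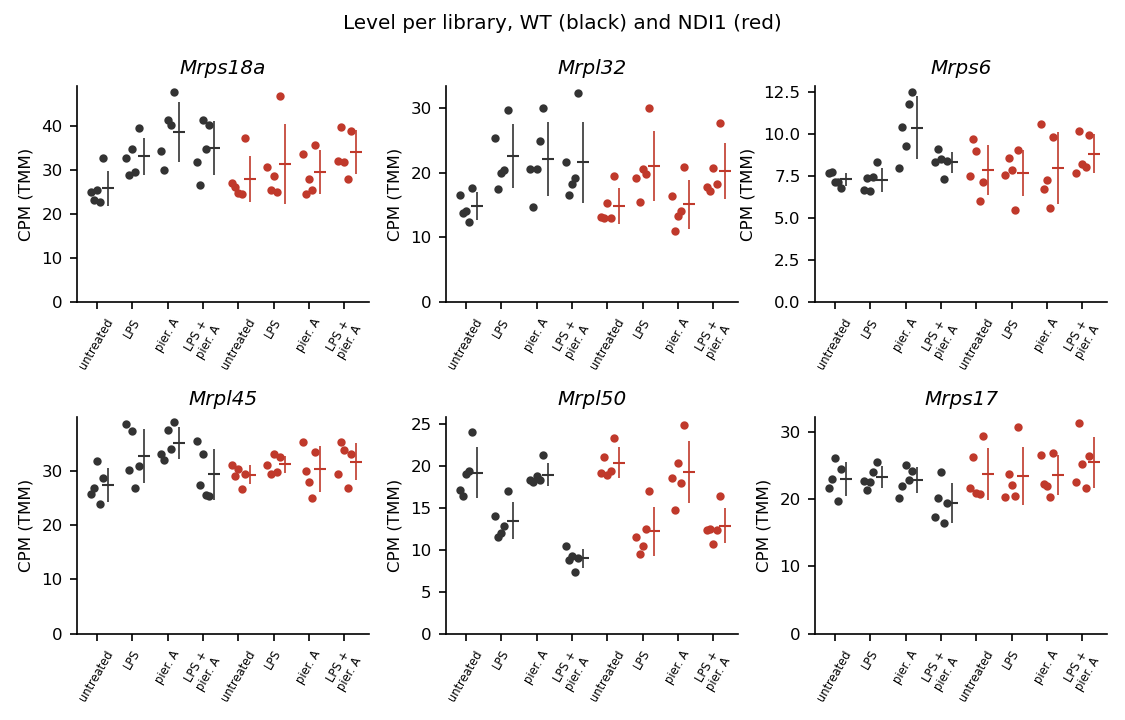
Level of 6 genes named in the comparisons of piericidin A and genotype in each library (CPM, normalized by TMM) for the 8 groups, WT in black and NDI1 in red. Points are libraries, and the bar beside them is the mean ± SD of 5 libraries. Mrpl50 is lowest in WT with LPS plus piericidin A, at a mean of 8.99 CPM against 12.9 CPM in NDI1.

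Of the genes around the mitoribosome, for which 7.79% higher and 7.05% lower over all tested genes are the background, 1 of the 5 subunits with other names rose with piericidin A in WT without LPS (Aurkaip1, by 0.37 ± 0.12, adjusted p = 0.029, edgeR). Of 29 assembly and modification genes, 1 rose and 2 fell, namely Trmt61b (0.54) and Mrm2 and Lrpprc (−0.99 and −0.32). Mrrf, the ribosome recycling factor, rose by 0.60 among 13 translation factors, and Myc rose by 1.80 among 9 biogenesis regulators. Of 14 genes of mitochondrial DNA transcription and maintenance, 2 rose and 4 fell. The 7 messenger RNAs encoded by mitochondrial DNA had a median of −0.52, and none was called. Blocked by mouse (17.2% higher and 16.9% lower over all genes), 6 of these 7 fell, 3 of the 5 subunits with other names rose, 2 of the assembly and modification genes rose and 5 fell, 1 translation factor fell beside the 1 that rose, and 2 biogenesis regulators fell.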

How the data were processed

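The 40 RNA-seq libraries cover 4 treatments of BMDMs from each of 10 mice. The authors made poly(A)-selected NEBNext Ultra libraries, ran Trimmomatic on the reads, used STAR with mm10 for alignment and deposited raw counts of reads in exons per gene from HTSeq. Versions of STAR and HTSeq, the annotation release and the strand setting are not given in the sources used here, so reads of overlapping genes may be mixed. Of 43430 rows, 42462 carry a gene symbol. The members, gene lists and tests were chosen with earlier results of these data known. Counts were fitted in R 4.3.3 with edgeR 4.0.16 (filterByExpr over 8 groups, TMM, 1 mean per group over all 40 libraries, glmQLFit and glmQLFTest, Benjamini-Hochberg over 11853 genes, threshold 0.05). CPM values are normalized by TMM, and the SE is the size of the log2 fold change over the square root of F. Libraries of a mouse are paired by its number in the labels. Their deviations from the group means correlated at 0.453 on average over 60 pairs (0.0995 to 0.769). Between mice the value was −0.107, which subtracting the group means by itself pushes below 0. Fits with the mouse as a block were therefore also made. No pair of replicates agreed within sampling noise (80 pairs, chi-square per degree of freedom at least 9.35). Named genes were the 5 largest increases and decreases called in each comparison within a genotype, every member called between genotypes, every member failing the filter, and fixed genes with known roles, and for each other gene list the 2 largest called in each direction. Mrpl24, Mrps15, the genes next to or overlapping members, and those at the ends of the order by level per kb were named after their values were seen. Alternatives were RLE factors, library totals, DESeq2 1.42.0, no filter, at least 10 counts in every library, only the compared libraries, the block, and leaving out each mouse. The fits were also run on simulated counts without a mouse effect, which cannot check the pairing or the scaling with LPS. Promoters are RefSeq entries, exon lengths GENCODE M21.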

Additional observations from a re-analysis of the deposited data

Results flagged for a closer look

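Of the groups of 5 libraries checked for a single library far from the others, chance alone marks about 1 in 20 (69 checked, 6 found, 3.45 by chance). The NDI1 mouse 521 stood above the other NDI1 mice in the summed levels untreated and with LPS, but not with piericidin A, where mouse 447 was highest, or with LPS plus piericidin A, where mouse 460 was. Its Mrpl sum was 1130 CPM untreated, against 900 to 944 CPM in the other mice, and 1260 CPM with LPS, against 934 to 992. Its Mrps sum was 550 CPM untreated, against 441 to 472, and 563 CPM with LPS, against 421 to 449. Mrpl2 in the LPS-treated NDI1 library of the same mouse was at 16.9 CPM, against 12.2 to 13.1. Mrps18a in untreated WT BMDMs was at 32.7 CPM in mouse 520, against 22.7 to 25.5 in the other mice.

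The effect of piericidin A in WT BMDMs differed between cells with and without LPS, by the test of the difference, for Mrpl30 (−0.64 ± 0.15, adjusted p = 0.011, edgeR) and Mrpl45 (−0.52 ± 0.15, adjusted p = 0.039). Neither passed with library totals alone, without mouse 496 or without mouse 520. Mrpl30 kept its call in 14 of 18 alternatives and Mrpl45 in 7.

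The column of reads left unassigned to a library, which no comparison used, held 69848 counts on the mitoribosomal protein genes, 0.24% of its 29104648 counts. All 77 genes had more than 3 counts in it.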

How the results depend on the processing

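With library totals alone, the counts of members higher and lower with LPS were 1 and 66 in WT (14.6% and 66.3% of all genes) and 1 and 65 in NDI1 (14.6% and 66.1%), and with piericidin A in WT without LPS 1 and 1 (4.24% and 14.4%). No member differed by LPS in its piericidin A effect in WT, and 1 was higher in NDI1 with LPS plus piericidin A. Mrpl3 in WT (−0.035) and Mrpl39 and Mrpl30 in NDI1 (−0.0068 and −0.043) changed sign with LPS. By construction this scaling leaves out the TMM factors.

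For piericidin A in WT without LPS, members higher numbered 2 with no filter, 4 with only the compared libraries, 17 with the mouse as a block (2 lower), 1 without the mice that stand apart, and 1 to 8 when leaving out 1 mouse. Under LPS in WT, 1 was higher with at least 10 counts in every library and by DESeq2, 4 were higher and 5 lower with the block, 0 were lower with only the compared libraries and without the mice that stand apart, and leaving out 1 mouse gave 0 to 1 higher and 0 to 3 lower.

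For the LPS dependence of the piericidin A effect in WT, 1 was lower with no filter and with only the compared libraries, 8 with the block, 0 without the mice that stand apart, and 0 to 3 when leaving out 1 mouse. Between genotypes, the block gave 3 lower in the piericidin A effect without LPS and 1 higher under LPS. With LPS plus piericidin A, 1 member was higher in NDI1 with no filter, 0 with only the compared libraries and without the mice that stand apart, and 0 to 3 when leaving out 1 mouse. With piericidin A alone, leaving out 1 mouse gave 0 to 2 lower. Shares over all genes are not given for leaving out mice, for other filters on low counts or for only the compared libraries. The cause of these changes was not tested. With the mouse as a block, no other count over all 76 members moved by over 1.5 times, and no member lost its call. Where the block moved a printed count of a smaller list by over 1.5 times, its count is given there.

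Of 538 values of named genes under alternatives, 472 kept their direction and call, 63 kept the direction only and 3 changed sign. Counting members above and below the median of all genes with library totals alone, chosen after seeing the data like leaving out the mice that stand apart, gave 37 and 39 with LPS in WT and 34 and 42 in NDI1. Members with as few as 16 counts in a library limit what small changes could be detected.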
